A study of Arabidopsis thaliana with 2 samples.

Results

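A set of 243 assembled transcripts that match an annotated Arabidopsis thaliana transcript was examined, and their outer ends were compared with the annotation. Of these, 178 were spliced, with exactly the annotated introns, and 65 had a single exon and so no intron. All 243 were chosen by 2 marks in the table of transcript models. These were the class code for a full match of the intron chain and an origin name that the assembler gives to a transcript it built itself. No measured level entered that choice. They make up 2.21% of the 10991 assembled transcripts and 0.581% of the 41859 transcripts with that class code. The other 41616 transcripts of the class carry an annotated name as their origin and are called carried over here. The table holds 52608 transcripts in all.

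The RNA came from siliques, the seed pods of Arabidopsis, harvested 1 to 5 days after pollination from Col-0 plants with the ago3-3 mutation of ARGONAUTE 3, in 2 libraries of total RNA that were depleted of ribosomal RNA and sequenced with strand information. The study also names wild-type Col-0 siliques, which were not analysed here as separate libraries. All values come from 1 merged table with 0 columns per library, and the sources used here do not say which libraries were merged. Expression level, depth, replicate spread and any difference between genotypes are therefore outside what these data can show, the labelled tissue could not be checked against marker genes, and each value below is a position, a length or a count in the merged set.

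Plant genes are transcribed by RNA polymerase II past the point where the messenger RNA is cut and given its poly(A) tail, and neighbouring genes on 1 strand are often separated by short stretches. An assembler joins overlapping reads into exons, so reads that run across such a stretch give an exon that continues into the next gene. If the next gene has no intron, the intron chain of the joined model is still that of the upstream gene, and the model still counts as a match of the upstream transcript. Transfer RNAs, which carry amino acids to the ribosome, are by contrast short transcripts of RNA polymerase III, often encoded in arrays of near-identical genes.

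The matches fell into 2 kinds. In 178 of them, from 157 genes, the transcript was spliced and ended far downstream of the annotated 3′ end. In the other 65, each from its own gene, the transcript had a single exon, and 61 of these had exactly the annotated start and end. The sequences that stand behind both kinds are given first. For the spliced kind these are the stretches between the annotated 3′ end of a gene and the next gene, which lie inside the assembled last exon. The stretches shown belong to the genes with 2 or more assembled matches and a distance to the next gene of under 100 nt. The stretch itself is in capitals, and 10 bases of the upstream and of the downstream gene flank it in lower case. All are written 5′ to 3′ on the strand of the gene, from the TAIR10.1 reference.
AT1G24300.1 to AT1G24290, minus strand, chr1:8614268-8614374: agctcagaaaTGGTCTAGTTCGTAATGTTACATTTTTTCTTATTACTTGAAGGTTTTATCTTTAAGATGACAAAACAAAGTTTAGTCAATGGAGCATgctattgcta
AT1G32410.1 to AT1G32415, plus strand, chr1:11695557-11695620: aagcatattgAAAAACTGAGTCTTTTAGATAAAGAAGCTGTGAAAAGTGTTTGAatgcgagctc
ML2 AT2G42890.1 to AT2G42900, plus strand, chr2:17854544-17854566: aattagttatCATtacaaaaccg
ADA2B AT4G16420.1 to AT4G16410, minus strand, chr4:9262592-9262630: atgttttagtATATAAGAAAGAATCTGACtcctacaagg
AT5G52200.1 to AT5G52190, minus strand, chr5:21202534-21202648: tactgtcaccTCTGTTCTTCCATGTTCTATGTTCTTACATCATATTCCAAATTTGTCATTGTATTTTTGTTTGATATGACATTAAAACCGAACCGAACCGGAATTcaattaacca
EDM2 AT5G55390.1 to AT5G55380, minus strand, chr5:22447889-22447975: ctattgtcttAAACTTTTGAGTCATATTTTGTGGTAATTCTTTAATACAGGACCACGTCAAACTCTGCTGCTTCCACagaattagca
ATATH13 AT5G64940.1 to AT5G64950, plus strand, chr5:25953813-25953853: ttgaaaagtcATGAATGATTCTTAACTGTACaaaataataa
GAMMA CA3 AT5G66510.1 to AT5G66500, minus strand, chr5:26549668-26549713: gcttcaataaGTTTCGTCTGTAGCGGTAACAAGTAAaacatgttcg

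Of the 65 single-exon matches, 24 are tRNA genes for proline and 22 are protein-coding genes. The 24 tRNA genes hold 6 distinct sequences, of which 18 genes share the first below; the anticodon, which begins at base 33 of 72, is in capitals. The hairpin gene of miR398b, the only microRNA gene among the matches, is added with its annotated miR398b-5p and miR398b-3p in capitals.
tRNA-Pro of 18 genes, from AT1G28740, plus strand, chr1:10090368-10090439: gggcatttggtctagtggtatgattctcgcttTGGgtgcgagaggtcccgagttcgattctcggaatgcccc
tRNA-Pro of AT2G33920 and AT2G33960, from AT2G33920, plus strand, chr2:14353143-14353214: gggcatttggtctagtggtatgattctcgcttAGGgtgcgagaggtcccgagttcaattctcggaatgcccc
tRNA-Pro of AT2G33950, plus strand, chr2:14355137-14355208: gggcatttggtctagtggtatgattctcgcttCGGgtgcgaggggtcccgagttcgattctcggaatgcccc
tRNA-Pro of AT1G28730, plus strand, chr1:10089898-10089969: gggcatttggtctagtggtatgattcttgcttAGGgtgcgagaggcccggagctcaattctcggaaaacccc
MIR398B, AT5G14545, plus strand, chr5:4691022-4691137: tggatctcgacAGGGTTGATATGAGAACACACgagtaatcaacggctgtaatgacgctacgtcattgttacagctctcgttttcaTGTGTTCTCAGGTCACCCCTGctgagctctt

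Every one of the 178 spliced matches ended beyond the annotated 3′ end of its transcript, by 602 to 6320 nt, with a median of 1227.5 nt (95% order-statistic interval 1068 to 1380 nt). This interval counts each transcript as independent, although isoforms of the same gene shared the 3′ end, so it may be too narrow. The extension was under 1000 nt in 68 of the 178 matches, from 1000 nt to under 2000 nt in 73, from 2000 nt to under 3000 nt in 29 and 3000 nt or more in 8. None was shorter than 600 nt. The smallest belonged to SSP4 (602 nt), a phosphatase gene, XTH32 (603 nt), a gene of the xyloglucan-modifying cell wall enzymes, and AT2G25687 (607 nt). Cufflinks can fold an assembled transcript into the annotated one when its 3′ overhang is shorter than a set length; the sources used here do not give that setting, and its part in the lower edge was not tested.

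The added sequence lengthened the last exon. Its median length was 1683 nt in the assembled matches and 358 nt in the same transcripts as annotated. Whole transcripts had a median of 3067 nt as assembled and 1447 nt as annotated, a median ratio of 1.93, and 84 of the 178 were at least 2 times as long. The 3′ side held 92.5% of all added sequence, 259699 nt against 21083 nt on the 5′ side, and in 175 matches the 3′ extension was the longer of the pair. Whether matches with shorter 3′ overhangs were folded away before the set was formed was not tested. This contrast between the ends is a description of the set.

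**Figure D1:**
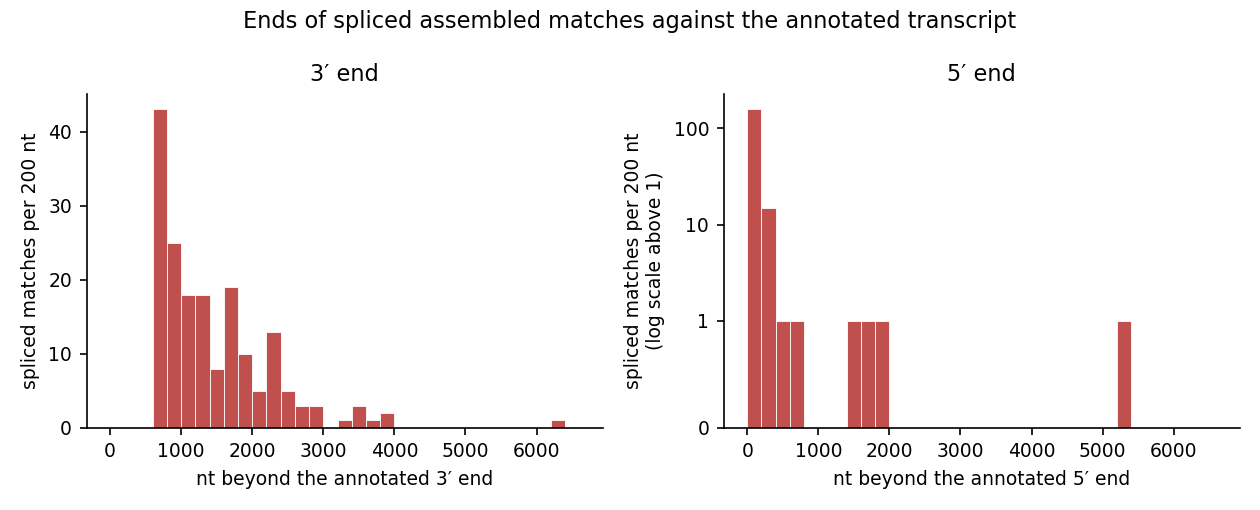
Number of spliced assembled matches (n = 178) per 200 nt of distance beyond the annotated 3′ end (left) and 5′ end (right, count on a log scale above 1). On the left no bar stands below 600 nt and the farthest lies at 6320 nt; on the right the 60 matches with the annotated 5′ end fall in the first bar and the farthest lies at 5372 nt.

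For comparison, new isoforms are assembled transcripts that share a junction with a gene but have another intron chain, and 7604 of them end with an annotated last intron. Measured from the outermost annotated end that follows the same last intron, 170 of 178 spliced matches (95.5%) and 108 of 7604 new isoforms (1.42%) ended 600 nt or more beyond. Distances of 1 to 599 nt were found in 1 match (0.562%) and in 3296 new isoforms (43.3%). Exactly the annotated end was kept by 7 matches (3.93%) and 4198 new isoforms (55.2%). Both kinds came from the same merged set, and no test of the difference was made. They overlap in their ends, since 60 of the 178 matches had the 3′ end of a new isoform of the locus. Against their own annotated transcripts all 178 matches ended more than 600 nt beyond, as given above. Whether matches with shorter overhangs were folded away before the set was formed was not tested. The contrast with new isoforms is therefore a description of the set.

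**Figure D2:**
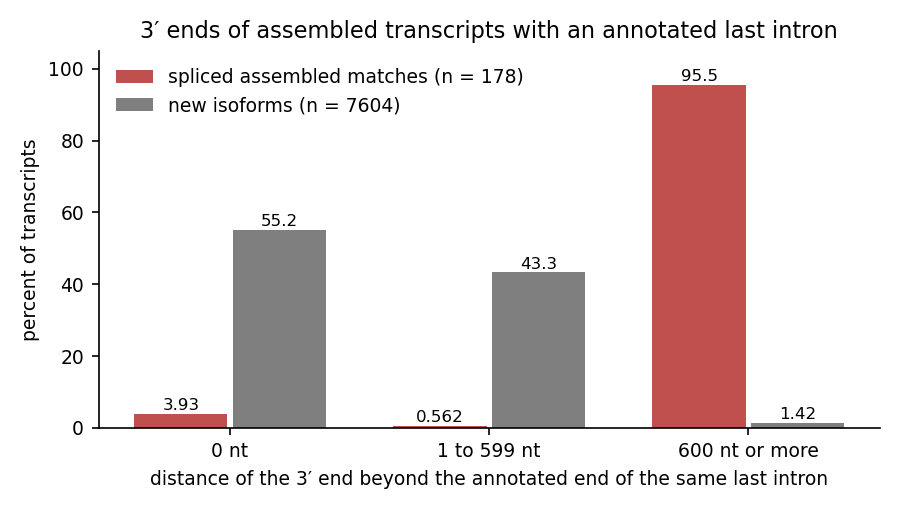
Percent of spliced assembled matches (left bars, n = 178) and of new isoforms with an annotated last intron (right bars, n = 7604) by the distance of the 3′ end beyond the outermost annotated end after that intron. The matches stand at 95.5% in the class of 600 nt or more, where new isoforms stand at 1.42%. Whether matches with shorter overhangs were folded away before the set was formed was not tested.

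In 111 of the 178 spliced matches (62.4%) the extension ran into an annotated gene on the same strand. The exact binomial 95% interval was 54.8 to 69.5%, covering counting over transcripts and not the spread between plants. It counts each transcript as independent. The 178 matches came from 157 genes, and isoforms of the same gene shared the 3′ end, so the interval may be too narrow. These 111 transcripts joined 93 pairs of neighbouring genes, with extensions of 631 to 3982 nt and a median of 1605 nt. The downstream gene was covered from end to end in 92 of the 93 pairs. In 47 pairs (50.5%) the assembled 3′ end was, to the base, an annotated 3′ end of the downstream gene, and in 45 pairs (48.4%) it lay past that gene, by a median of 133 nt. In the remaining pair the extension of CIPK9, a kinase that works with calcineurin B-like calcium sensors, stopped inside AT1G01130, 953 nt past its own annotated end.

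The joined neighbours lay close together. The stretch between them was 0 to 1008 nt long with a median of 120 nt, and it was under 100 nt in 40 pairs and under 500 nt in 87 pairs. The downstream gene had 1 annotated exon in 88 of the 93 pairs (94.6%). A downstream gene with an intron that was spliced out would have given another intron chain, so the choice of the matches favours such neighbours and this share is a description. In 4 pairs the last exon ran over an annotated intron of the downstream gene: AT5G19025 behind AT5G19030, AT4G39925 behind AT4G39930, AT2G03540 behind ATUPS2, and AT2G07787 behind AT2G07827.

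**Figure D3:**
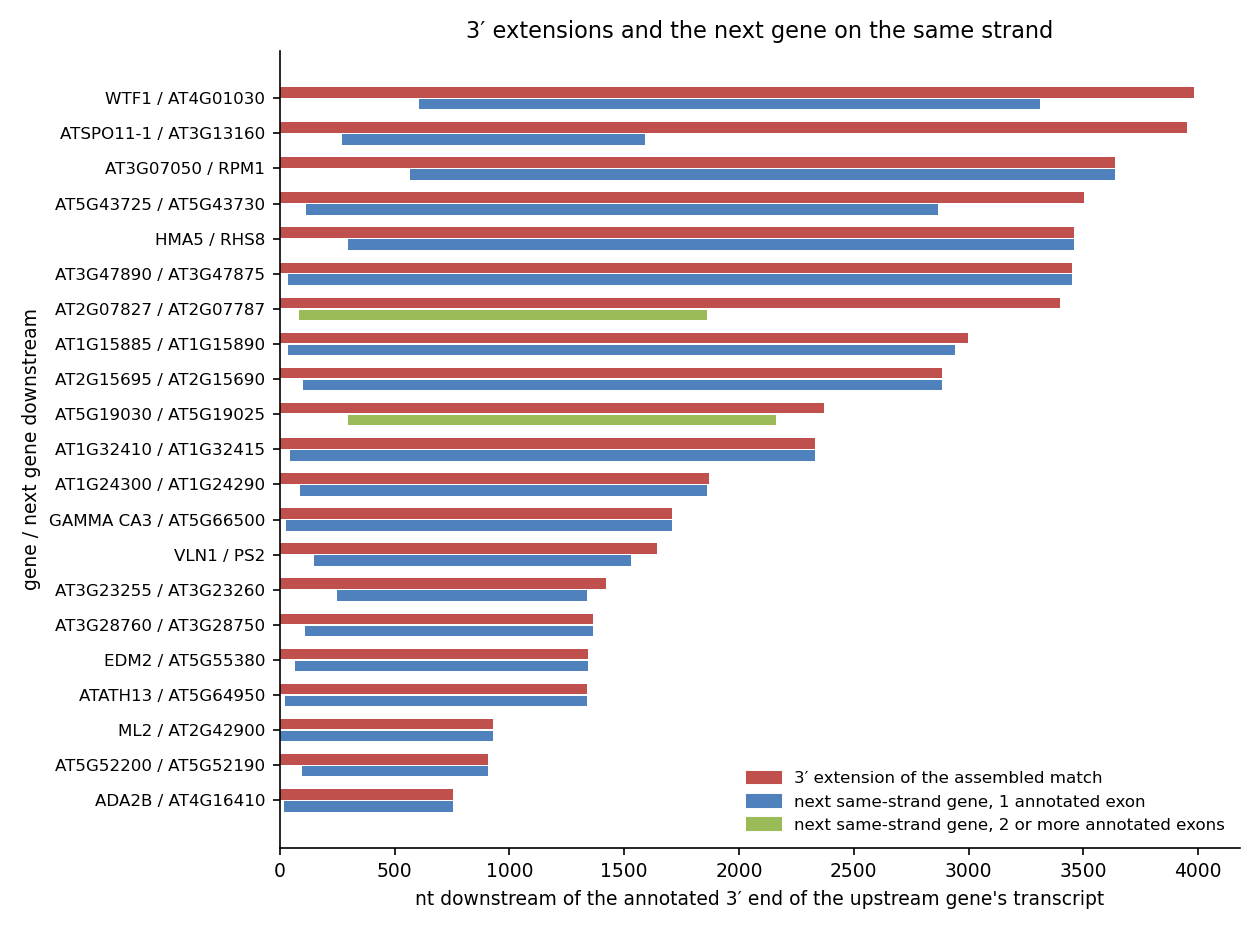
Red bars give the 3′ extension of an assembled match and the bars under them the next annotated gene on the same strand (blue for 1 annotated exon, green for 2 or more), in nt from the annotated 3′ end of the upstream transcript. Shown are the genes with the largest extensions or with 2 or more matches whose extension reached such a gene; for AT3G07050, HMA5 and AT1G32410 the red bar ends with the blue one, while for ATSPO11-1 it runs 2362 nt past.

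The largest extension into a same-strand gene, 3982 nt, belonged to WTF1 (AT4G01037). It crossed a stretch of 608 nt and all of AT4G01030, a pentatricopeptide repeat gene, and ended 672 nt past it. ATSPO11-1, whose product makes the DNA breaks that start meiotic recombination, was extended by 3951 nt over both AT3G13160 and AT3G13150. AT3G07050, a nucleostemin-like GTPase gene (NSN1 in the newer annotation), was extended by 3638 nt and ended at the annotated end of RPM1, an immune receptor gene. HMA5, a copper-transporting ATPase gene, was extended by 3460 nt and ended at the annotated end of RHS8. AT3G47890 was extended by 3452 nt to the end of the pseudogene AT3G47875, and with 8683 nt it was the longest of all 243 matches. AT2G15695 was extended by 2885 nt over AT2G15690, whose product name is that of a tetratricopeptide repeat-like superfamily. AT1G15885 (2999 nt) and the non-coding AT5G43725 (3504 nt) ran over the disease resistance genes AT1G15890 and AT5G43730. For AT5G43725, a longer annotated form of the gene already reaches past this end.

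Genes with several matches repeated the same extension in each isoform or nearly so. AT1G32410, which encodes a VPS55-family vacuolar sorting protein, had 5 matches, and all ended 2330 nt downstream, at the annotated end of the pentatricopeptide repeat gene AT1G32415. Sets of 3 matches were found in ADA2B, a coactivator of histone acetylation (755 nt, ending with AT4G16410), VLN1, an actin-bundling villin (1645 nt, 116 nt past the presenilin gene PS2), and AT5G19030, an RNA-binding protein gene (2369, 2391 and 2420 nt). EDM2, a chromatin regulator known from downy mildew resistance, had extensions of 1342 and 1356 nt that share 1 end, that of AT5G55380. The paired extensions of ATATH13 were 1337 and 1338 nt, those of GAMMA CA3, a subunit of mitochondrial complex I, 1709 nt each, and those of ML2, a MEI2-like RNA-binding protein gene, 928 and 949 nt. Both matches of AT3G28760, annotated as a 3-dehydroquinate synthase, were extended by 1364 nt to an annotated end, over AT3G28750. Those of AT3G23255, annotated as a tRNA-modifying enzyme, were extended by 1382 and 1421 nt over AT3G23260. Those of AT1G24300 were extended by 1870 nt each, and those of AT5G52200 by 909 and 819 nt. In all of these the isoforms differed inside the gene and shared the 3′ end, so they are not independent observations of that end.

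Repeat proteins were frequent downstream partners. Pentatricopeptide repeat proteins act on organelle RNA and many of their genes have no intron, while the tetratricopeptide repeat is a protein-interaction motif of many unrelated proteins. Of 80 downstream protein-coding genes with 1 exon, 10 (12.5%) had pentatricopeptide in the product name, against 184 of 5357 genes (3.43%) of that kind in the whole table. Tetratricopeptide stood in the names of 8 of the 80, each time as a tetratricopeptide repeat-like superfamily, and in 130 of the 5357 (2.43%). Besides the pairs named above they include AT4G17616, which the 2372-nt extension of ATCBL1 covered to its annotated end, AT4G36680 behind the splicing factor gene ATU2AF65A (1753 nt), and AT2G36730 behind SWC2 (1692 nt), a subunit of the complex that places the histone variant H2A.Z. The names were matched by keyword, and no test was made. The 5357 genes were not limited by length or to genes close behind a spliced gene, as the downstream partners are. The shares are therefore a description. A superfamily name does not show which repeat a protein carries, so the split by name is not a split into kinds of protein.

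The next gene on the same strand lay closer to the genes of spliced matches than to all genes of 2 or more exons. Among the 156 nuclear genes of spliced matches with a neighbour, the next same-strand gene began at a median of 350 nt, against 2555.5 nt for the 22448 nuclear genes of 2 or more exons in the table. It lay within 1000 nt for 62.2% of the genes of matches and for 29.9% of all, it had 1 exon for 68.6% and 25.8%, and both held for 53.8% and 6.45%. The exon number of the neighbour is partly fixed by the choice of the matches, as said above. The distance is not independent of it either, since every spliced match carries a long 3′ extension and most ran into a same-strand gene. These distances and shares are a description of the loci. The distance to the next gene on the opposite strand had a median of 4213 nt for genes of matches and 3253 nt for all. Seen from the other side, 84 of the 1447 genes with a 1-exon same-strand neighbour within 1000 nt (5.81%) had a spliced match, and 72 of the other 21008 genes (0.343%) had one. The same limits hold for these shares. Most genes with such a neighbour had no assembled match.

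**Figure D4:**
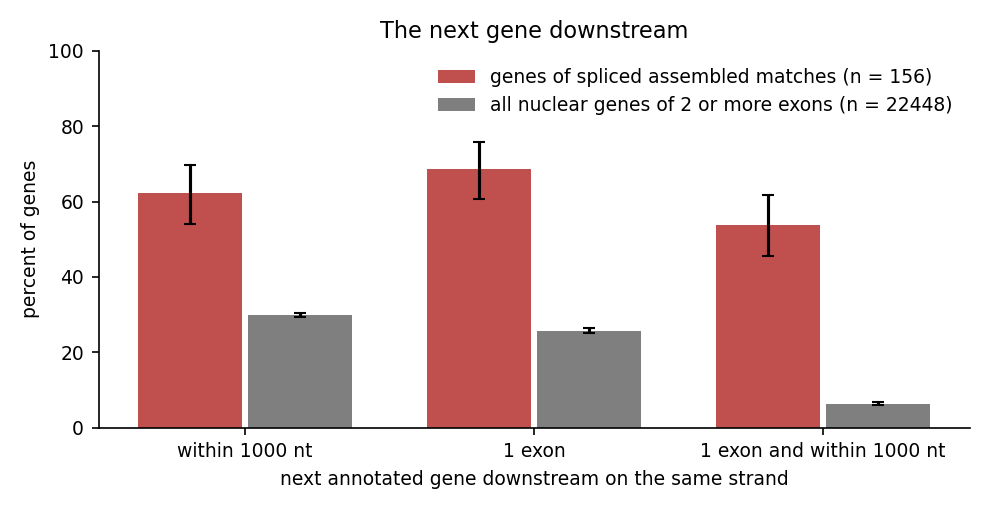
Percent of genes of spliced assembled matches (left bars, n = 156) and of all nuclear genes with 2 or more exons (right bars, n = 22448) whose next annotated gene on the same strand lies within 1000 nt, has 1 exon, or both. Error bars are exact binomial 95% intervals over genes; both conditions held for 53.8% of genes of matches and 6.45% of all.

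The remaining 67 spliced matches met no further same-strand gene in the annotation used for the table. In 13 of them the 3′ end lay at the end of another annotated transcript of the same gene, so that intron chain and end were both annotated but not in the same transcript. These include both matches of SHP1, a MADS-box gene of the fruit valve margin (610 and 617 nt), and those of CAM5, a calmodulin gene (1057 nt), RD26, a NAC transcription factor gene of drought responses (660 nt), GA2OX2, which inactivates gibberellins (643 nt), and ATCKX6, a cytokinin oxidase gene called CKX5 in the newer annotation (704 nt), as well as XTH32, AT1G30810 and AT1G58602. The extension of EMB1444 (1974 nt) belongs here too; its isoform AT1G06150.2 was the single match without a carried-over transcript of its own name, and its intron chain was carried over as AT1G06149.1. The other 54 had a median extension of 855.5 nt. Of these, 13 reached a gene on the opposite strand and 41 no further gene, and 4 shared the 3′ end of another gene's annotated transcript that already overlapped theirs, as MIM did (812 nt).

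Among those 54 were ETR1, an ethylene receptor gene, whose transcript of 7 exons ran 1856 nt past its end with no gene in the way, ATTOC120, a gene of the chloroplast protein import machinery (2183 nt), NFD4 (1580 nt), and CAS1, the cycloartenol synthase gene of sterol synthesis (1078 nt). Set against the outermost annotated end of the whole gene in place of the matched isoform, 164 of all 178 spliced matches still ended beyond it, 13 at it and 1 inside it. By that measure the largest distance was 3982 nt, and 6 in place of 8 matches reached 3000 nt. AT2G07806.3, the farthest by its own isoform, ended 2992 nt past its gene in place of 6320 nt. The one inside was AT5G43725, with a distance of -657 nt to the end of its longer annotated form.

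The contrast with the 3′ side is a description of a set in which no 3′ extension was under 600 nt. Within it, the 5′ ends moved far less. They lay beyond the annotated start in 118 of 178 spliced matches (66.3%), were the same in 60 and inside in none; the median over all 178 was 29 nt, and it was 60 nt among those extended. Only 5 of the 118 reached another gene. AT2G07728 had the largest 5′ extension, 5372 nt over 4 genes, AT4G19070 was extended by 1847 nt over AT4G19080 and AT4G19090, and AT1G53350, a disease resistance gene, by 1495 nt over AT1G53345. AT2G07806 (1720 nt) and the mitochondrial NAD5 (789 nt) completed the 5. Next in size were the bHLH gene AT5G51790 (409 nt) and the ubiquitin hydrolase gene AT1G65295 (295 nt), then AT2G45403 (283 nt), the heavy metal transport gene AT5G50740 (280 nt) and AT3G47890 (279 nt). The assembled 5′ end equalled that of a carried-over transcript of the locus in 79 matches and the 3′ end in 76. A new isoform was present at the locus of 67 of the 178 matches. It shared the 5′ end in 42 and the 3′ end in 60.

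The newer annotation of the TAIR10.1 reference gives a second view of these ends. Its gene start lay at or beyond the assembled 5′ end in 124 of 177 nuclear spliced matches (70.1%), with a median difference of -3 nt. Its gene end lay at or beyond the assembled 3′ end in 19 (10.7%), and in 134 (75.7%) the assembled end remained 600 nt or more beyond. Of the 257344 nt of 3′ extension on nuclear chromosomes, 70.4% lay in exons of another gene on the same strand, 12.4% in exons of the same gene and 7.96% in exons annotated on the other strand. The 12.4% were made up of 5.19% up to the outermost end that the older annotation gives the gene and 7.25% past it. HINT4 ended 998 nt past the older and 4 nt inside the newer end, and ATM1, a myosin gene of 24 exons, 739 nt past the older and 21 nt inside the newer end.

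In splicing structure the spliced matches resembled the annotation, which their choice fixes within each gene but not in the choice of genes. The median exon number was 6 in spliced matches and 5 in the 30140 spliced transcripts carried over, and 26.4% against 22.3% had 10 or more exons. MIM, a chromosome-maintenance gene of the SMC family, had the most (29), followed by ATM1 and AT3G08840 (24 each), VLN1 (22), ATATH13 (20), and AT1G04620 and EDM2 (19 each). Of 1101 introns on nuclear chromosomes, 1094 began with GT and ended with AG and 7 began with GC. As annotated, these transcripts had a median of 1447 nt, against 1450 nt for all spliced transcripts carried over.

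New isoforms accompanied many of the spliced matches. At least 1 was assembled for 57 of the 222 genes of matches (25.7%), against 19% of all 33552 genes in the table. All 57 were among the 157 genes with a spliced match (36.3%, exact binomial 95% interval 28.8 to 44.3%), against 28.3% of the 22490 genes with 2 or more exons, and none were among the 65 genes with a single-exon match. Of the 157, 34 had 1 new isoform, 16 had 2 and 7 had 3 or more. The depth of reads over each gene is unknown, and its part in these shares was not tested.

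By product name the 222 genes were spread over many families, each small in number, and no test of the shares was made. The 24 tRNA genes made up 10.8%, against 1.86% of all genes. RNA-binding or splicing proteins were 8 of them (3.60%, against 1.02% of all genes), all spliced: besides ATU2AF65A and AT5G19030 these were SRZ-21 (1617 nt), a splicing factor gene, ATRBP47B (1788 nt), HEN4 (809 nt), the KH-domain gene AT5G46190 (1232 nt), AT1G09230 (1798 nt) and the ISY1-like AT3G18790 (1058 nt). Disease resistance genes of the NB-LRR class, whose products detect pathogens, were 4 (1.80% against 0.569%): AT1G53350 (1033 nt at the 3′ end), the single-exon AT3G14460, AT1G58602 (736 nt) and AT4G16900 (2200 nt, over AT4G16910).

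Other families had shares closer to those of all genes. Transcription factors or DNA-binding proteins were 7 (3.15% against 2.85%): EMB1444, SHP1, RD26, SWC2, the single-exon AT2G42940, AT5G51790 (1137 nt at the 3′ end) and the jumonji gene AT1G30810 (1138 nt). By keyword in the product name, 7 fell under ubiquitin or proteasome (3.15% against 2.16%). They were AT3G47890, WTF1, AT1G65295 (1053 nt), APG12 (2168 nt), the conjugating enzyme gene PFU1 (860 nt), AT3G53410 (662 nt) and the single-exon AT4G09130. The keyword alone placed WTF1 there, and its function was not checked. Transporters were 5 (2.25% against 2.16%): HMA5, AT1G79520 (1468 and 1469 nt), the ureide permease gene ATUPS2 (1096 nt), NAKR1 (994 nt) and AT5G50740 (1478 nt). The last 2 ended only 55 and 219 nt past the outermost annotated end of the gene. Zinc finger or zinc-binding proteins were 5 (2.25% against 1.73%): SRZ-21, AT1G30810, AT3G25940 (1179 nt), AT3G59845 (721 nt) and AT4G19190 (2173 nt). Pentatricopeptide or tetratricopeptide proteins were 4 (1.80% against 1.68%): AT3G14330 (791 nt), AT3G24000 (865 nt), AT5G03560 (2308 nt) and the single-exon AT4G21300. F-box proteins were 3 (1.35% against 1.87%): AT1G08710 (767 nt, and 354 nt past the outermost end of its gene) and the single-exon AT3G52320 and AT4G33290.

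Non-coding RNA genes were 10 (4.50% against 1.96%). Of these, 7 were spliced, namely AT5G43725, AT1G78865 (1725 nt), AT2G41312 (1870 nt), AT4G02005 (1094 nt), AT4G03811 (1026 nt), AT4G12917 (1645 nt) and AT5G38212 (730 nt), and MIR398B, AT3G14475 and AT2G11852 had 1 exon and their annotated ends. Families with lower shares than all genes were kinases, with 4 (1.80% against 4.08%), which were CIPK9, ETR1, AT5G65530 (867 nt) and the single-exon AT3G52530, and uncharacterized proteins, with 29 (13.1% against 19.4%). RPS14 (626 nt) was the only ribosomal protein gene (0.450% against 1.02%). Pseudogenes or transposable elements were 11 (4.95% against 14.4%), of which AT2G25687 was the only spliced one. The others were AT1G43886 and AT4G06477, whose 3′ ends moved, and AT2G01022, AT2G07694, AT2G07812, AT2G11850, AT2G24750, AT2G24760, AT3G31161 and AT4G09143, with unchanged ends. AT1G43886 (7410 nt) and AT2G24750 (6985 nt) were among the 5 longest matches, beside AT3G47890, AT2G07806 and AT2G07728 (7349 nt).

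The single-exon matches were a different set of loci. Their median length was 183 nt, against 972 nt for the 11476 single-exon transcripts carried over, and 24 of the 65 were tRNA genes, all for proline. The table has 623 tRNA genes, of which 66 are for proline. The table marks 61 of the 65 as contained in another transcript, the same 61 whose ends were those of the annotation. The exceptions were AT1G43886 (1141 nt beyond the 3′ end) and AT4G06477 (859 nt), both typed as pseudogenes, AT2G42940 (24 nt), an AT-hook gene, and AT4G21300. The last, with tetratricopeptide in its product name, had 149 nt at the 5′ and 75 nt at the 3′ end. The merged set holds no read values, so the matches with unchanged ends do not show that these RNAs were present.

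These matches came in groups. For 56 of 65 (86.2%) the neighbouring locus of the table on the same strand was a single-exon match as well, and the 65 formed 28 runs: 9 of 1, 16 of 2, 1 of 6 and 2 of 9. The runs of 6 and 9 were arrays of tRNA-Pro genes. The first array of 9 spans 4808 nt on chromosome 1, the 6 follow on the same chromosome over 2692 nt, and the second array of 9 spans 6207 nt on chromosome 2. Of the 24 genes, 20 have the anticodon TGG, 3 have AGG and 1 has CGG. Between both runs on chromosome 1 lie 11 further tRNA-Pro genes, AT1G28820 to AT1G28920, that are carried over only.

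Transcripts assembled on the opposite strand lay over 48 of the 65 single-exon matches (73.8%) and over 445 of the 11476 single-exon transcripts carried over (3.88%). For 36 of these 48, an exon of the opposite transcript lay over the match. Annotated transcripts of the opposite strand also lay over 33 of the 65 matches (50.8%), against 728 of the 11476 carried over (6.34%). All 24 tRNA matches were under an assembled transcript of the opposite strand, against 44 of the 599 other tRNA genes (7.35%). Among the other tRNA-Pro genes, the group most like them, it was 20 of 42. The 24 matches lie in the arrays described above and share opposite transcripts, so they are not 24 separate observations. On chromosome 1 these included isoforms of AT1G28710 for the first array and of ATNUDX15, a nudix hydrolase gene, for the second, and on chromosome 2 isoforms of NUDT22. ATNUDX15 is itself among the spliced matches, with extensions of 1948 and 2047 nt that run over AT1G28970, AT1G28980 and AT1G28990 from the other strand. The 11 tRNA-Pro genes carried over only also lay under opposite-strand assembled transcripts, so this feature did not separate the arrays.

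**Figure D5:**
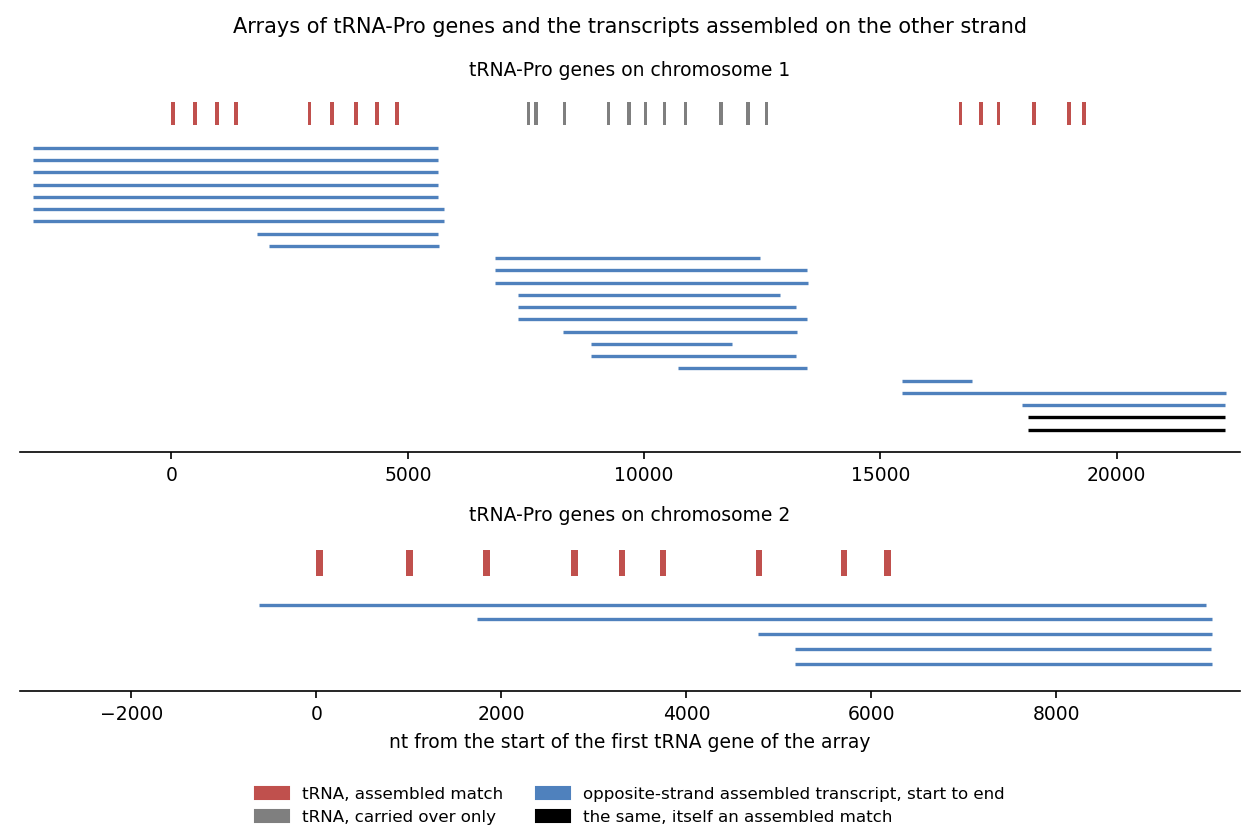
Position of tRNA-Pro genes (upper row of each panel; red for assembled matches, grey for genes carried over only) and of assembled transcripts on the opposite strand from start to end (blue; black where the transcript is itself an assembled match), in nt from the first tRNA gene. On chromosome 1, 9 and 6 matches flank 11 genes carried over only, and opposite-strand transcripts lie over all 3 groups.

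Of the 16 runs of 2, 14 had an annotated gene of the opposite strand between or over them. How often this holds for neighbouring same-strand loci in general was not counted, so these 14 runs are a description. MIR398B, the precursor of a microRNA that targets copper superoxide dismutase messengers, formed such a run with AT5G14560, and a new isoform of AT5G14550 lay over both from the other strand. The disease resistance gene AT3G14460 and the snoRNA gene AT3G14475 lay beside or under AT3G14470, the F-box gene AT3G52320 and AT3G52302 beside or under AT3G52310, and the kinase gene AT3G52530 and OFP18, an ovate-family gene, beside or under AT3G52535, each on the opposite strand from its run. In both mitochondrial runs, ORF122C with ORF107D and ORF136A with ORF136B, the opposite transcripts carried the names ORF240A and ORF136A. All runs named so far in this paragraph had an assembled transcript of the opposite strand over both genes. The runs AT2G11850 with AT2G11852, AT3G31051 with AT3G31161, AT4G09130 with AT4G09143, AT4G22513 with AT4G22517, and AT4G33290 with AT4G33310 had none over either gene.

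Near-identical copies were common among single-exon matches. Another stretch of the nuclear or organelle genomes with at least 95% identity over at least 90% of the longest annotated exon was found for 32 of 61 nuclear genes of single-exon matches (52.5%), 5 of 156 genes of spliced matches (3.21%) and 2545 of 33274 nuclear genes (7.65%). Without tRNA genes, of which 97.0% have a copy, it was 9 of 37 (24.3%) against 10.6% of single-exon genes. Any reads from such copies could not be assigned to 1 of them with certainty. The 23 of 24 tRNA matches with a copy and the genes of the next paragraph with one are therefore uncertain as to locus. Whether any read lay on the tRNA models cannot be told from the merged set. The exception among the tRNA matches was AT1G28730.

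Mitochondrial sequence was behind part of these. Chromosome 2 carries a large inserted copy of the mitochondrial genome, and 10 of its 57 matches, 4 spliced and 6 with 1 exon, had a mitochondrial copy and lay between positions 3249077 and 3492786 of that chromosome. Of all nuclear genes 0.394% had one. The spliced ones include the most extended transcript of all, AT2G07806.3, with 525 nt as annotated and 8565 nt as assembled (1720 nt at the 5′ and 6320 nt at the 3′ end, of which 2992 nt lay past the outermost annotated end of its gene), as well as AT2G07728, AT2G07827 (3398 nt at the 3′ end) and AT2G07815 (1767 nt). In the mitochondrial genome itself there were 5 matches: NAD5, a complex I subunit whose 2-exon model ATMG00513.1 was extended by 2355 nt at the 3′ end, and the 4 open reading frames named above, with unchanged ends. Chromosome 2 held 23.5% of the matches and 16.5% of the transcripts carried over, and mitochondria 2.06% and 0.348%.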

How the data were processed

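The authors deposited 1 merged table of transcript models for the whole series, with the start and end of each exon as genome positions in nt on TAIR10. TopHat2, Cufflinks and CASAVA 1.8 made it, per the submitters' processing notes. Settings, and the versions of TopHat2 and Cufflinks, remain not given in the sources used here. Counts, levels and depth per library are not in this table, so no error between replicates could be given. The intervals cover only counting over transcripts or genes, and those over transcripts count isoforms of the same gene separately. The 243 members and all lists were chosen with earlier results of these data known.

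Each match was paired with the carried-over transcript named as its nearest annotated transcript, or, for 1 match, with the carried-over transcript of the same intron chain. Ends were compared by strand, positive values meaning beyond the annotation. A further gene counts as reached if it does not overlap the annotated transcript. The comparison of ends was tested on simulated extensions. Python 3.11.15, numpy 2.4.6 and scipy 1.17.1 were used, with BLAST+ 2.17.0 for copies and matplotlib 3.10.9 for figures. Gene types, product names and sequences came from TAIR10.1: 32802 of 32806 shared nuclear genes overlapped on the same strand in both annotations. The mitochondrial build differs, so no mitochondrial sequence was read by coordinates. Genes were matched to 14 families by keyword in the product name; the lists of earlier work were not used here.

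Named are the 10 largest extensions at each end, the 10 matches with most exons, the 5 longest, all on organelle genomes, all of genes with 2 or more matches and all in the families, except that tRNA genes and uncharacterized proteins are named in part; the other genes named were chosen after their values were seen. No match had both ends inside the annotation.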

Additional observations from a re-analysis of the deposited data

How the results depend on the processing

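Over all 243 matches, single-exon ones included, the 5′ end lay beyond the annotation in 49.0%; the share was 41.6% against the outermost end of the gene, 29.5% against the same transcript in the newer annotation, 28.4% with a minimum of 50 nt and 66.3% for spliced matches alone. Keeping spliced matches alone also moved the median 5′ extension to 29 nt (0 nt over all), the share with a 3′ end beyond the annotation to 100% (74.9%), the median 3′ extension to 1227.5 nt (898 nt), the median length to 3067 nt (2667 nt) and the share of genes with a new isoform to 36.3% (25.7%). Of the 65 single-exon matches left out, 61 keep their annotated ends; their median length is 183 nt and none of their genes has a new isoform. The other alternatives moved values less: the 3′ share was 69.1% against the outermost end, 74.6% against the newer annotation and 74.5% with a minimum of 50 nt. No paired analysis was possible because the table holds no value per library, and for the same reason no library could be left out in turn.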

Other observations

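Genes added by the newer annotation lay inside some of the extensions. Of 177 nuclear spliced matches, 12 had a gene on the same strand in the 3′ extension that the older annotation lacks. These were 15 different genes: 5 snoRNA genes, which mostly guide the modification of ribosomal RNA, 4 protein-coding, 3 lncRNA, 1 snRNA, 1 tRNA and 1 of another RNA type. The snoRNA genes lay in 3 of the matches. Both matches of AT1G79520, a cation efflux gene, ran over AT1G09867, AT1G09873, AT1G09877 and AT1G09883, with extensions of 1468 and 1469 nt. A gene added on the opposite strand lay in the extension of 14 matches.

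The poly(A) signal AATAAA, searched on the transcript strand in the last 50 nt, was found at 18 of 177 assembled 3′ ends (10.2%), at 11 of the 177 annotated ends of the same transcripts (6.21%) and at 3018 of the 30105 nuclear spliced transcripts carried over. The GC content of the 3′ extension had a median of 40.2%, against 42.1% for the annotated part of the same transcripts, and it was lower in 118 of 177.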
